A study of Mus musculus with 15 samples.

Results

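Antioxidant enzymes, metallothioneins and subunits of the NADPH oxidases were described as a group of 42 genes of the 22526 gene symbols in the expression table of a mouse study of cerebral vessels. The members were taken by name, 1 row or symbol each, and all 42 were found in all 15 libraries. They comprised 5 glutathione peroxidases, 6 peroxiredoxins, 4 superoxide dismutase and catalase genes, 10 genes of the glutathione and thioredoxin systems, 6 glutathione S-transferases, 3 genes of the Nrf2 system, 3 metallothioneins and 5 NADPH oxidase genes.

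The mice were wild type C57BL/6 animals of 8 months. LH3-AL mice received AAV-LH3, an adeno-associated virus carrying lysyl hydroxylase 3, and then AngII (angiotensin II) plus L-NAME, an inhibitor of nitric oxide synthases. GFP-AL mice received AAV-GFP, a virus carrying a fluorescent protein, and the same AngII plus L-NAME. GFP-Veh mice received AAV-GFP and saline. Each group had 5 libraries, every mouse had a stereotactic virus injection and was perfused, and vessels were isolated from the brain before total RNA was sequenced. The labels gave no promoter or cell type for either virus, no doses, and no LH3 virus with saline or single drug, so AngII and L-NAME cannot be told apart. Nothing in the labels said whether a library came from 1 mouse or from a pool, and p-values measure the spread between these libraries. Plod3, the gene for lysyl hydroxylase 3, averaged 21.6 ± 1.46 FPKM in LH3-AL, 13.9 ± 1.09 in GFP-AL and 16.8 ± 0.621 in GFP-Veh (SD, n = 5 each, here and below).

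Superoxide made by NADPH oxidases and by mitochondria is turned into hydrogen peroxide by superoxide dismutases. Peroxide is then removed by catalase, by glutathione peroxidases and by peroxiredoxins, which draw their electrons from glutathione and thioredoxin. The transcription factor Nrf2, held back by Keap1, raises many of these genes through antioxidant response elements, and metallothioneins are small cysteine-rich proteins that bind zinc and copper and are induced by metals through the factor MTF1. Angiotensin II is a classical activator of NADPH oxidases in vessel walls, and the phagocyte form of the enzyme is abundant in macrophages, microglia and neutrophils.

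Values were FPKM, read fragments per kilobase of transcript and per unit of library size, and fold changes were fitted with limma after adding 1 FPKM and taking log2, a scale on which low genes change less than in FPKM, and are given ± SE. A gene was called when its p-value, adjusted over the 13082 genes that averaged at least 1 FPKM, was below 0.05. Of the members, 41 passed that filter and Nox4 did not.

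The promoters of Mt1, Mt2, Srxn1 and Txnrd1 are shown because these genes carried some of the clearest changes and because known response elements could be looked for in them, and that of Mt3 as the neighbouring metallothionein that was not called. Of the 42 members, 36 had an entry in the RefSeq promoter table (build GRCm38.p6), with 42 windows of 250 bases before to 50 bases after a start. Capitals mark the metal response element core, TGCACNC or TGCGCNC on either strand, in the metallothioneins. Mt3 lies at chr8:94152357-94152656, Mt2 at chr8:94172368-94172667 and Mt1 at chr8:94178839-94179138, all on the plus strand:
Mt1: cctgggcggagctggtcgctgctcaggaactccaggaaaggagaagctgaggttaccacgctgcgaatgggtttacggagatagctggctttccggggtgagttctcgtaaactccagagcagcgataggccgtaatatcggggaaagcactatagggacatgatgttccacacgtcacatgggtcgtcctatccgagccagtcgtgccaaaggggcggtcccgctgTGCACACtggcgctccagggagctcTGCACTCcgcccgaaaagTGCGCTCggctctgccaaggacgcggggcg
Mt2: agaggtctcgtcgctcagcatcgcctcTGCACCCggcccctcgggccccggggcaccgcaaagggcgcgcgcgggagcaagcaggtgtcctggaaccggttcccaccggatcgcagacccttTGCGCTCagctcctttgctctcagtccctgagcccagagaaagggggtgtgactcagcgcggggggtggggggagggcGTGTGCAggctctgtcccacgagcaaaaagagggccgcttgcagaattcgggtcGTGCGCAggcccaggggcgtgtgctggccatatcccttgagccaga
Mt3: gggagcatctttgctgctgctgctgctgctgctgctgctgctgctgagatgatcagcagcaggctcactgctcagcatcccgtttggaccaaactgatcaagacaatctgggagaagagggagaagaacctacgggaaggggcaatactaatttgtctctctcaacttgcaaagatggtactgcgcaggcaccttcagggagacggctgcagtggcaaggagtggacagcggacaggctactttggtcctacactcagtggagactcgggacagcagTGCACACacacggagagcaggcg
The Mt1 window held 3 matches, the Mt2 window 4 and the Mt3 window 1. Among all 32851 promoters in the table, 25.7% held at least 1 match, 1.97% held at least 3 and 0.517% held at least 4. Over the members, 13 genes had at least 1 match, among them Gclm with 3. In the following windows, capitals mark the antioxidant response element core, TGACNNNGC on either strand, for Srxn1 at chr2:152105274-152105573 and for Txnrd1 at chr10:82858956-82859255, both on the plus strand:
Srxn1: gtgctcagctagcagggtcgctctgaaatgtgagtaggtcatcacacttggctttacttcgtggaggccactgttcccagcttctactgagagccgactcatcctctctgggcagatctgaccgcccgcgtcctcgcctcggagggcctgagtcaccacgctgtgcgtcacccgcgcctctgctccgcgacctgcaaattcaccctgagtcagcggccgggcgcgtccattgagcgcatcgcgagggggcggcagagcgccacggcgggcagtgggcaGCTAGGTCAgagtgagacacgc
Txnrd1: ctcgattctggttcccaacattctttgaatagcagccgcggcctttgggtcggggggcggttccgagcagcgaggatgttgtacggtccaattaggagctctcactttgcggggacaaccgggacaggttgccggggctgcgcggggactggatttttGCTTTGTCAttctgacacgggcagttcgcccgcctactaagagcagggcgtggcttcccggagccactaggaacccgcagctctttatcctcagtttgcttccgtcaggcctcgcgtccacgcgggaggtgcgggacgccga
Each held 1 match, and 12.4% of all promoters held at least 1. Txnrd1 had 3 windows in the table and the 1 with a match is shown. Members with at least 1 such match numbered 8, namely Gclm, Gstm5, Mt2, Nfe2l2, Prdx1, Sod1, Srxn1 and Txnrd1. For both motifs the shares of all promoters are per window, while members were counted per gene, some with several windows. The member counts can therefore not be set against those shares. In the printed windows no match of one motif overlapped a match of the other, and a match is a run of letters and not a known binding site.

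AngII plus L-NAME was accompanied by higher levels of the metallothioneins Mt1 and Mt2, the oxidase subunits Cyba, Cybb, Ncf1 and Ncf4, the secreted peroxidase Gpx3 and the thiol enzymes Srxn1, Txnrd1 and Gsr, and under the LH3 virus most of them lay near the saline level, Gpx3 somewhat above it. In GFP-AL against GFP-Veh, 15 of the 41 tested members rose and 2 fell, Gpx8 and Prdx4. Of all tested genes, 28.6% were called in that comparison, 10.8% higher and 17.7% lower. The median log2 fold change was 0.23 over the members and −0.09 over all tested genes. In LH3-AL against GFP-AL, 17 members fell and 1 rose, Gpx8, where 28.5% of all genes were called, 11.4% lower and 17.0% higher. The members' median was −0.33, beside 0.08 over all genes. With median-of-ratios scaling, the share of all calls that were higher was 51.8% instead of 37.9% in GFP-AL against GFP-Veh, and 48.5% instead of 59.8% in LH3-AL against GFP-AL. Under that scaling 18 members rose and 1 fell in GFP-AL against GFP-Veh, and 21 fell and 1 rose in LH3-AL against GFP-AL.

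Both comparisons used the same GFP-AL libraries, so their opposite signs are not independent of each other. Called in both were 15 members: Cyba, Cybb, Gclc, Gpx3, Gpx8, Gsr, Mt1, Mt2, Ncf1, Ncf4, Nfe2l2, Prdx5, Srxn1, Txn1 and Txnrd1. Prdx2 and Prdx4 were called in GFP-AL against GFP-Veh alone, and Sod2, Txn2 and Txnip in LH3-AL against GFP-AL alone. A further 21 tested members were called in neither. In LH3-AL against GFP-Veh, which differ in virus and in drug, limma called 0 members in either direction. An unadjusted p below 0.05 was found for 4 members, beside 1180 of all 13082 tested genes. There 0.520% of all genes were called, and 0.145% were higher and 0.375% lower. The median was −0.08 over the members and −0.01 over all genes.

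**Figure D1:**
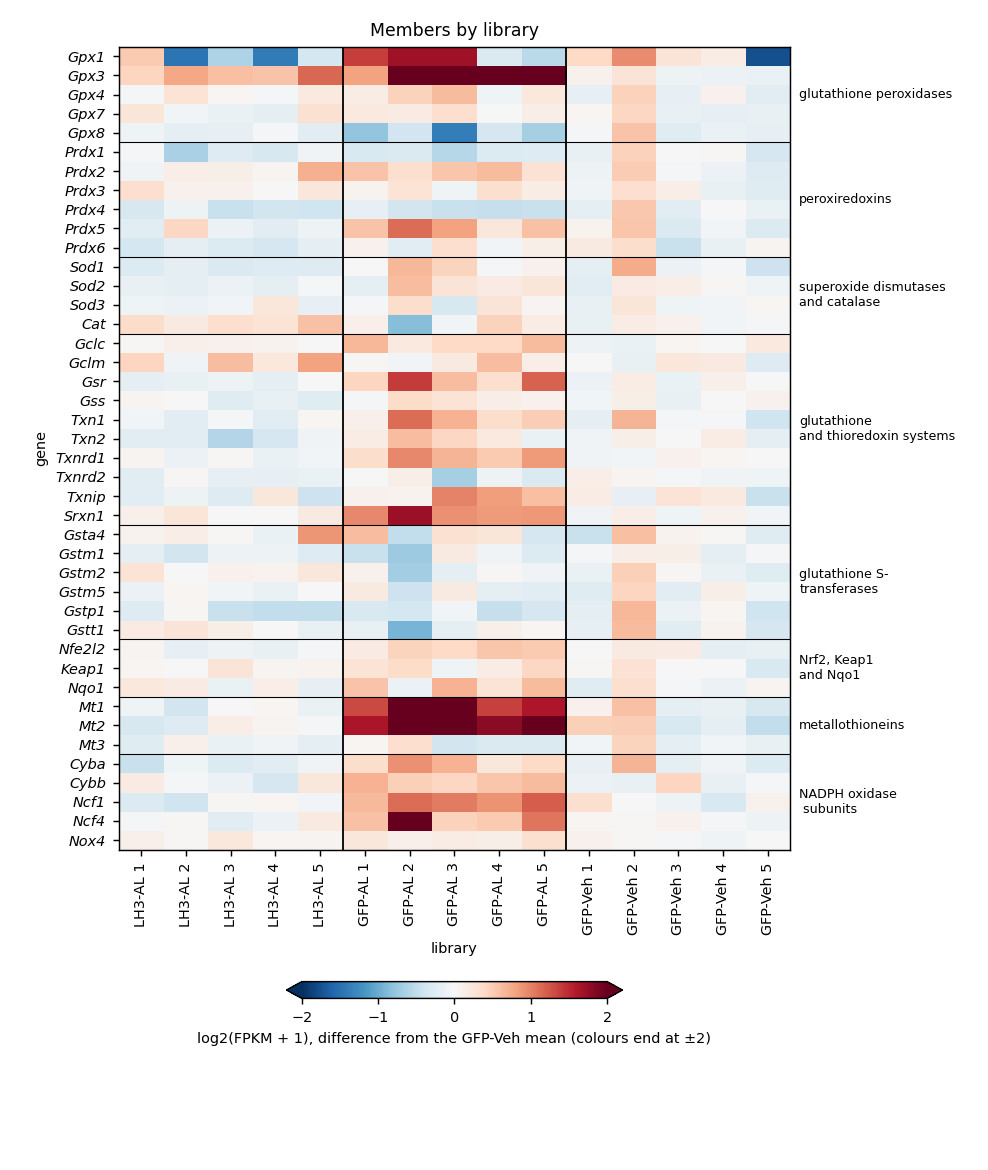
Each row is a member gene, grouped by role, and each column a library of LH3-AL, GFP-AL or GFP-Veh. Colour gives log2(FPKM + 1) minus the GFP-Veh mean, with colours ending at 2 in either direction, and the 5 GFP-AL columns are red in the rows of Mt1, Mt2, Gpx3, Srxn1, Ncf1 and Ncf4.

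Vessel markers were present in every library: the 12 endothelial markers summed to 2301 to 3610 FPKM in LH3-AL, 3492 to 5277 in GFP-AL and 2460 to 3454 in GFP-Veh. Depth, estimated from the size of the smallest step between values, was 18.1 to 31.6 M reads in LH3-AL, 21.2 to 27.8 in GFP-AL and 13.6 to 29.9 in GFP-Veh, where 4 of 5 libraries lay at or below 16 M. Relative to the GFP-Veh mean, transcripts shorter than 1000 bases stood above those of 4000 bases or more by 0.40 (log2) in GFP-AL 2 and in GFP-AL 3 and by 0.48 in GFP-Veh 2, while the other 12 libraries lay between −0.21 and 0.08. GFP-Veh 2 was the highest of its group for 32 of 42 members and the lowest for 1, and GFP-AL 2 was the highest for 17 and the lowest for 12. Without these 3 libraries, 17 members rose and 1 fell in GFP-AL against GFP-Veh, and 17 fell and 1 rose in LH3-AL against GFP-AL. Cell numbers and RNA per cell cannot be told apart in such bulk samples.

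**Figure D2:**
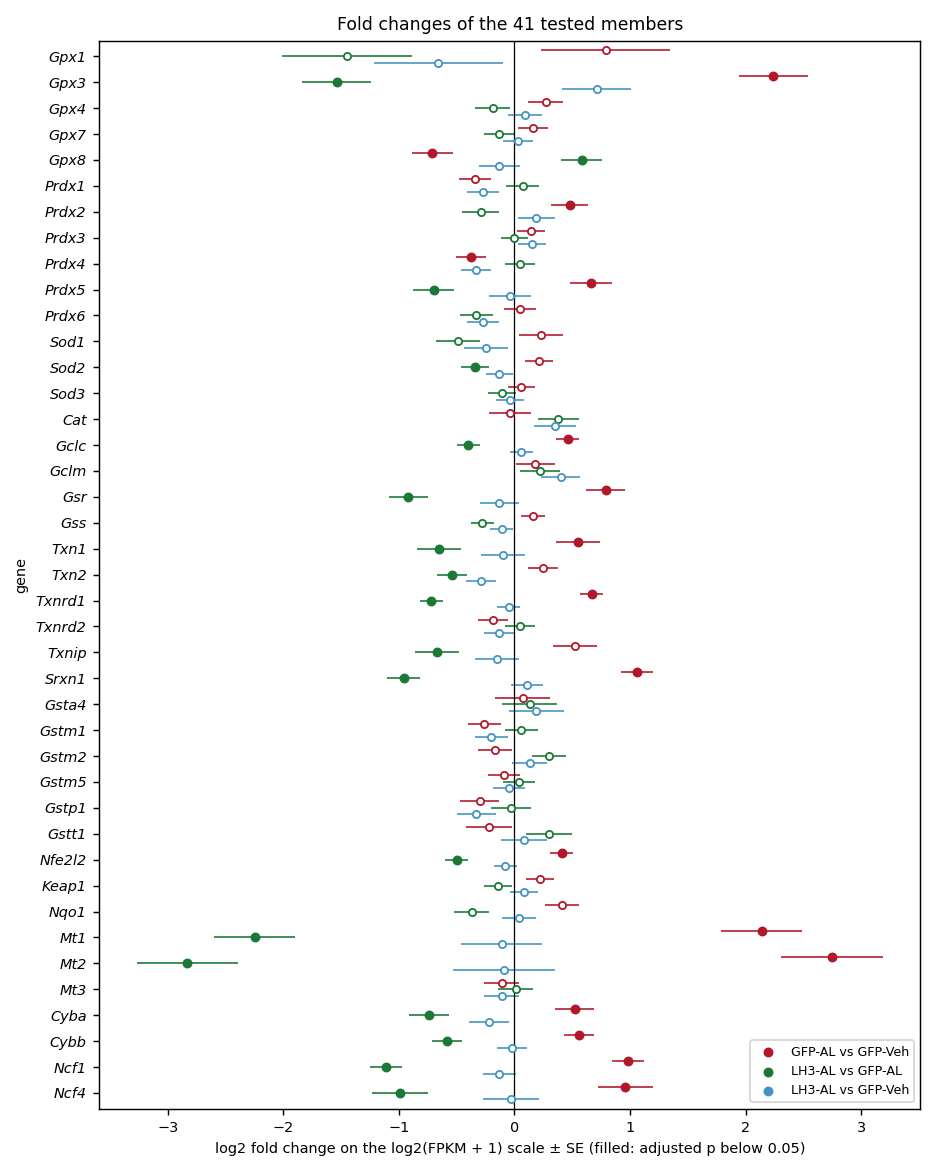
Log2 fold change with its standard error for the 41 tested members (GFP-AL against GFP-Veh, LH3-AL against GFP-AL, LH3-AL against GFP-Veh); filled points had an adjusted p below 0.05. Mt2, Mt1 and Gpx3 lie farthest to the right in GFP-AL against GFP-Veh, and no point of LH3-AL against GFP-Veh is filled.

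Mt1 and Mt2 had the highest levels of all members in GFP-AL, and Mt2 had the widest fold change in both comparisons with GFP-AL. Mt2 measured 100.4, 105, 138, 131 and 123 FPKM in LH3-AL, 394, 2815, 1576, 443 and 576 FPKM in GFP-AL and 176, 179, 102, 111 and 89.1 FPKM in GFP-Veh. All 5 GFP-AL libraries lay above all 10 others, and GFP-AL 2 and GFP-AL 3 lay well above the remaining GFP-AL libraries. The log2 fold change of Mt2 was 2.75 ± 0.44 (adjusted p = 0.000383) in GFP-AL against GFP-Veh and −2.83 ± 0.44 (adjusted p = 0.000459) in LH3-AL against GFP-AL. Mt1 measured 174, 142, 186, 189 and 168 FPKM in LH3-AL, 464, 2059.7, 1417, 476 and 565 FPKM in GFP-AL and 196, 277, 160.2, 166 and 148 FPKM in GFP-Veh. Its groups separated in the same way, with no overlap of GFP-AL with either other group. In log2 terms, the fold change of Mt1 was 2.14 ± 0.35 (adjusted p = 0.000479) and −2.25 ± 0.35 (adjusted p = 0.000485) in these comparisons. Without GFP-AL 2, GFP-AL 3 and GFP-Veh 2, the Mt2 values were 2.0 and −1.96 and the Mt1 values 1.58 and −1.54, each still called.

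Mt3, the neighbouring metallothionein known mainly from neurons and astrocytes, averaged 82.1 ± 7.64 FPKM in LH3-AL, 82.8 ± 18.1 in GFP-AL and 89.3 ± 17.8 in GFP-Veh. Its log2 fold change was −0.11 ± 0.15 in GFP-AL against GFP-Veh and 0.01 ± 0.15 in LH3-AL against GFP-AL, neither called. Relative to Mt1, Mt2 was also higher in GFP-AL on average, a ratio that was not among the planned tests. The ratio of Mt2 to Mt1 was 0.578, 0.738, 0.742, 0.693 and 0.733 in LH3-AL, 0.849, 1.37, 1.11, 0.932 and 1.02 in GFP-AL and 0.897, 0.646, 0.639, 0.672 and 0.602 in GFP-Veh. GFP-AL 1 lay below GFP-Veh 1, and the other GFP-AL ratios lay above every GFP-Veh and LH3-AL ratio. The highest ratios were those of GFP-AL 2 and GFP-AL 3, in which short transcripts stood above long ones. An exact two-sided permutation test gave p = 0.0159 for GFP-AL against GFP-Veh and p = 0.00794, the smallest that 5 against 5 libraries allow, for LH3-AL against GFP-AL (0.0238 each after adjustment over 3 comparisons). The same exact test gave p = 0.897 for LH3-AL against GFP-Veh. Mt2 has an exon length, over all annotated transcripts together, of 588 bases, overlaps Gm45774 on the opposite strand and is the only member under 1000 bases. Mt1 has 1246 bases, and the part of length in the ratio was not tested. The labels do not say whether counting used strand. The 3 metallothioneins made up 27.4 ± 2.39% of the summed member FPKM in LH3-AL, 57.3 ± 14.9% in GFP-AL and 27.6 ± 2.84% in GFP-Veh (SD, n = 5 each).

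**Figure D3:**
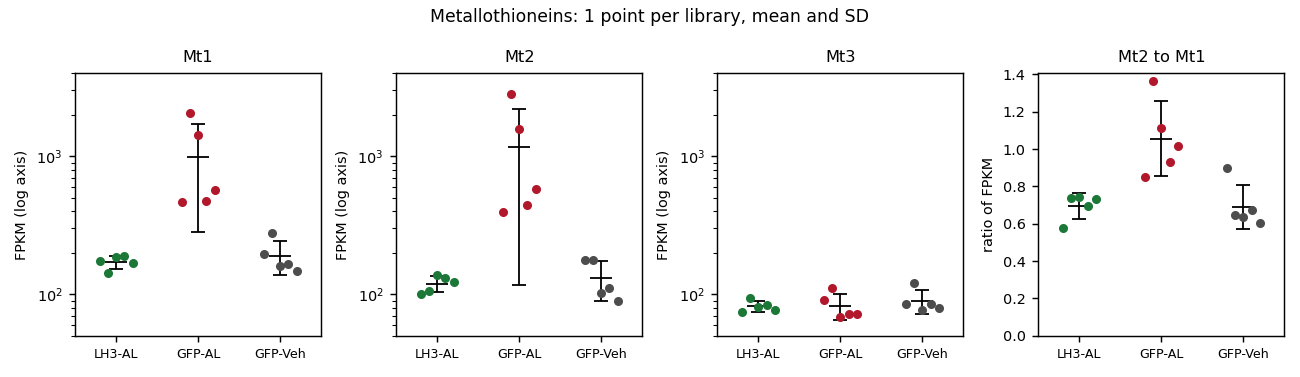
FPKM of Mt1, Mt2 and Mt3 on a log axis, and the ratio of Mt2 to Mt1 on a linear axis from 0, with 1 point per library and the mean and SD in LH3-AL, GFP-AL and GFP-Veh. The GFP-AL points of Mt1 start at 464 FPKM, above the highest point of the other groups at 277, and those of Mt3 overlap the other groups.

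All 4 tested NADPH oxidase subunits rose in GFP-AL against GFP-Veh and fell in LH3-AL against GFP-AL. Ncf1, an organiser of the phagocyte oxidase in the cytosol, measured 1.82, 1.58, 2.46, 2.498 and 2.29 FPKM in LH3-AL, 4.34, 6.39, 6.01, 5.31 and 6.84 FPKM in GFP-AL and 3.23, 2.44, 2.16, 1.74 and 2.60 FPKM in GFP-Veh. Every GFP-AL library lay above every other library. Of the Ncf1 exon bases, 408 overlap Gtf2ird2 on the opposite strand, and whether counting used strand was not given. For Ncf1 the log2 fold change was 0.98 ± 0.14 (adjusted p = 0.000122) and −1.11 ± 0.14 (adjusted p = 8.62e-05). Ncf4, which binds the same cytosolic complex, measured 0.868, 0.947, 0.658, 0.762 and 1.17 FPKM in LH3-AL, 1.88, 7.45, 1.64, 1.76 and 3.03 FPKM in GFP-AL and 0.969, 0.947, 1.03, 0.857 and 0.783 FPKM in GFP-Veh. GFP-AL 2 stood far above the rest, and the other GFP-AL libraries still exceeded both other groups. This gave a log2 fold change of 0.96 ± 0.24 (adjusted p = 0.00854) and −0.99 ± 0.24 (adjusted p = 0.00816), or 0.66 and −0.69 without GFP-AL 2. With length balance as a covariate the second Ncf4 call was lost (adjusted p = 0.0599).

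Cybb, the catalytic subunit of the phagocyte oxidase, measured 2.60, 2.11, 1.95, 1.53 and 2.76 FPKM in LH3-AL, 4.20, 3.48, 3.26, 3.73 and 3.99 FPKM in GFP-AL and 1.95, 1.91, 3.31, 1.90 and 2.16 FPKM in GFP-Veh. GFP-Veh 3 lay above GFP-AL 3, and no LH3-AL library reached the GFP-AL range. The log2 fold change of Cybb was 0.56 ± 0.13 (adjusted p = 0.00551) and −0.58 ± 0.13 (adjusted p = 0.00512). Cyba, the membrane partner that several NADPH oxidases share, measured 44.9, 57.6, 50.7, 52.7 and 58.2 FPKM in LH3-AL, 78.8, 117, 99.8, 71.5 and 81.5 FPKM in GFP-AL and 55.0, 98.8, 53.8, 58.7 and 50.4 FPKM in GFP-Veh. GFP-Veh 2 reached into the GFP-AL range and no LH3-AL library did. In log2 terms, the fold change of Cyba was 0.52 ± 0.17 (adjusted p = 0.0349) and −0.74 ± 0.17 (adjusted p = 0.00651). The call of Cyba in GFP-AL against GFP-Veh was lost in 8 of 25 alternatives, among them leaving out GFP-AL 2 or 3 or GFP-Veh 1, 3, 4 or 5 (adjusted p up to 0.0909), and its fold change was 0.26 to 0.69 over them. Nox4, an oxidase of endothelial and smooth muscle cells, measured 0.205, 0.146, 0.306, 0.153 and 0.171 FPKM in LH3-AL, 0.313, 0.200, 0.239, 0.218 and 0.408 FPKM in GFP-AL and 0.195, 0.141, 0.1004, 0.0558 and 0.125 FPKM in GFP-Veh. These values lie below the filter, and GFP-AL 1 to 5 each exceeded the highest GFP-Veh value, the lowest of them by a small margin.

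Markers of several cell types moved with these subunits, up or down. Of 19 microglia and macrophage markers, 13 rose in GFP-AL against GFP-Veh and 14 fell in LH3-AL against GFP-AL. Their summed level was 435 to 503 FPKM in LH3-AL, 946 to 1538 in GFP-AL and 324 to 713 in GFP-Veh. Among 11 tested of 14 neutrophil markers, 6 rose and 8 fell in the same comparisons. The 14 summed to 48.5 to 89.8 FPKM in LH3-AL, 128 to 984 in GFP-AL and 111 to 360 in GFP-Veh. Ngp, Camp and Ltf went the other way in GFP-AL against GFP-Veh, not called. Ngp averaged 27.4 FPKM in GFP-AL and 44.5 in GFP-Veh. Between LH3-AL and GFP-Veh, all 11 had negative fold changes, 0 of them called. Of these, 6 had an unadjusted p below 0.05, and 5 lay lower without overlap, beside 2.61% of all tested genes. The 6 monocyte markers, of which 2 were tested, summed to 3.33 to 9.39 FPKM in LH3-AL, 52.4 to 136 in GFP-AL and 5.73 to 17.6 in GFP-Veh. In each comparison with GFP-AL, 1 of the 2 was called. Most of the sum was Chil3, which averaged 3.20 FPKM in LH3-AL, 69.3 in GFP-AL and 5.97 in GFP-Veh. Ly6c2, Ccr2, F10 and Vcan averaged at most 1.31 FPKM in any group. The microglial genes Tmem119 and P2ry12 averaged 14.0 and 2.61 FPKM in LH3-AL, 20.4 and 3.39 in GFP-AL and 16.6 and 2.72 in GFP-Veh. For both, the GFP-AL and GFP-Veh ranges overlapped. C1qa of the same list averaged 246 FPKM in GFP-AL and 97.3 in GFP-Veh, without overlap. Of the 19 microglia and macrophage markers, 18 had a positive fold change in GFP-AL against GFP-Veh, and Aif1 a negative one. Of the microglia and macrophage, neutrophil and monocyte markers, only Elane reached 0 FPKM in a library, in GFP-AL. All 7 red cell markers rose in GFP-AL against GFP-Veh, limma called 0 of them in LH3-AL against GFP-AL, where 0 had an unadjusted p below 0.05, and 3 were called higher in LH3-AL against GFP-Veh, where all 7 lay above without overlap. Of all tested genes, 2.06% lay above without overlap there. The red cell markers summed to 4774 to 10139 FPKM in LH3-AL, 3874 to 19348 in GFP-AL and 1471 to 3864 in GFP-Veh. Of 12 choroid plexus and ependyma markers, 8 fell in GFP-AL against GFP-Veh and 6 rose in LH3-AL against GFP-AL, with sums of 3193 to 5295 FPKM in LH3-AL, 1986 to 3128 in GFP-AL and 3711 to 9250 in GFP-Veh. Of 10 oligodendrocyte markers, 7 fell and 5 rose in the same comparisons, with overlapping sums of 491 to 1091 FPKM in LH3-AL, 342 to 896 in GFP-AL and 698 to 1045 in GFP-Veh. Among the endothelial markers, 5 rose and 3 fell in GFP-AL against GFP-Veh, and 1 rose and 4 fell in LH3-AL against GFP-AL. Of 11 mural markers, 3 fell in GFP-AL against GFP-Veh and 1 rose in LH3-AL against GFP-AL. The lymphocyte, fibroblast, astrocyte and neuron lists had at most 2 calls in either direction in each comparison. The part of these markers' cells in the members' changes was not tested.

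**Figure D4:**
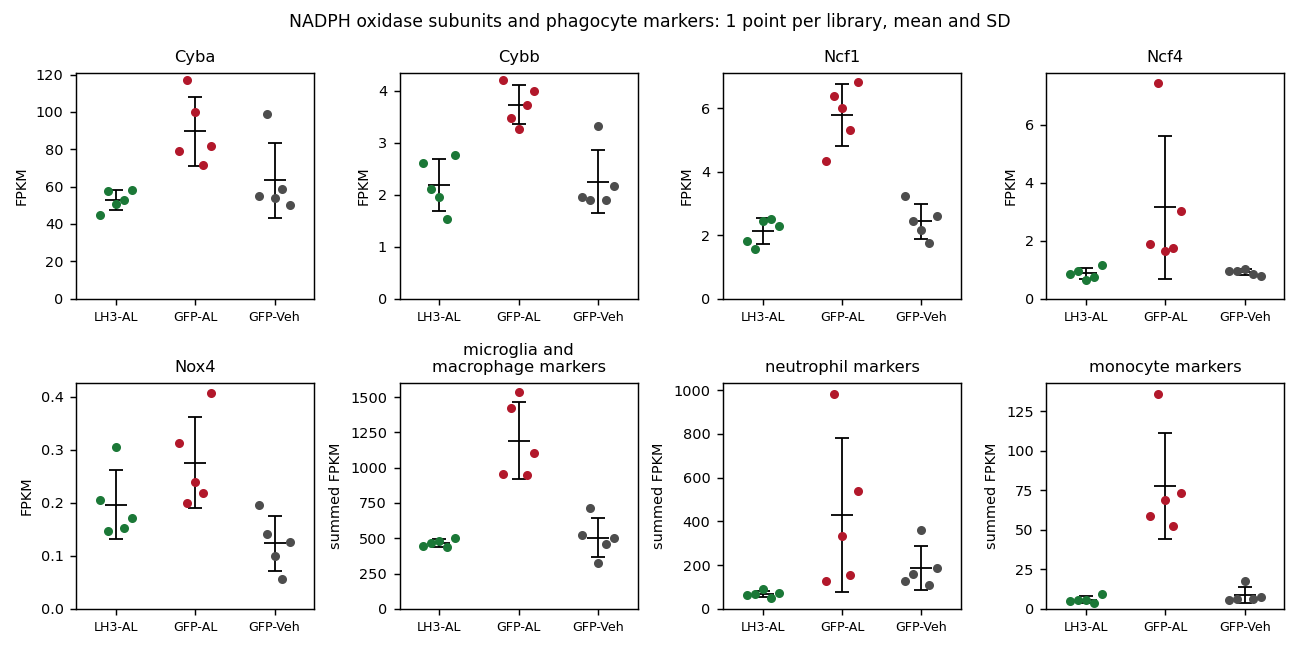
FPKM of the 5 NADPH oxidase genes and summed FPKM of the microglia and macrophage, neutrophil and monocyte markers, with 1 point per library and the mean and SD in LH3-AL, GFP-AL and GFP-Veh. The GFP-AL points of Ncf1 and of the microglia and macrophage markers lie above all points of both other groups. Most of the mean monocyte sum is Chil3.

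Within the glutathione and thioredoxin systems, 5 of 10 members rose in GFP-AL against GFP-Veh and 7 fell in LH3-AL against GFP-AL. Srxn1, sulfiredoxin, which repairs over-oxidised peroxiredoxins, measured 10.3, 11.4, 9.60, 9.46 and 10.9 FPKM in LH3-AL, 19.6, 33.5, 18.9, 17.997 and 18.1 FPKM in GFP-AL and 8.97, 10.6, 8.87, 10.2 and 9.15 FPKM in GFP-Veh. GFP-AL 2 stood highest, and all GFP-AL libraries lay above all others. For Srxn1 the log2 fold change was 1.06 ± 0.14 (adjusted p = 8.83e-05) for GFP-AL against GFP-Veh and −0.96 ± 0.14 (adjusted p = 0.00031) in LH3-AL against GFP-AL. Txnrd1, the cytosolic thioredoxin reductase, measured 16.9, 14.8, 16.5, 14.6 and 15.6 FPKM in LH3-AL, 20.9, 32.4, 26.4, 23.6 and 30.0 FPKM in GFP-AL and 15.3, 15.6, 17.3, 16.7 and 16.2 FPKM in GFP-Veh. Its GFP-AL range was again clear of both other groups, with log2 fold changes of 0.67 ± 0.10 (adjusted p = 0.000316) and −0.72 ± 0.10 (adjusted p = 0.000291).

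Gsr, glutathione reductase, measured 9.12, 9.51, 9.85, 9.14 and 10.6 FPKM in LH3-AL, 14.7, 29.6, 16.8, 13.7 and 25.2 FPKM in GFP-AL and 9.75, 11.8, 9.65, 11.5 and 10.5 FPKM in GFP-Veh. GFP-AL 2 and GFP-AL 5 were highest, and no GFP-AL library overlapped another group. The fitted log2 change was 0.79 ± 0.17 (adjusted p = 0.00306) and −0.92 ± 0.17 (adjusted p = 0.00138). Txn1, the cytosolic thioredoxin, measured 39.0, 34.7, 39.3, 35.0 and 41.7 FPKM in LH3-AL, 43.5, 89.1, 66.4, 51.9 and 57.2 FPKM in GFP-AL and 35.2, 65.2, 39.2, 39.7 and 30.4 FPKM in GFP-Veh. GFP-Veh 2 fell inside the GFP-AL range, and all LH3-AL libraries lay below it. Its log2 fold change was 0.55 ± 0.19 (adjusted p = 0.0433) and −0.65 ± 0.19 (adjusted p = 0.0221). The first of these calls was lost in 14 of 25 alternatives, with values of 0.29 to 0.77, and the second in 4, with values of −0.76 to −0.29. The smallest values were those with length balance as a covariate. Leaving out GFP-Veh 1, 3, 4 or 5, GFP-AL 2, 3 or 5, or LH3-AL 1, 3, 4 or 5 ended the first, and leaving out GFP-AL 2, GFP-AL 3 or LH3-AL 4 the second. Without GFP-AL 2 the adjusted p values of Txn1 were 0.101 and 0.0521, and without GFP-AL 3 they were 0.0905 and 0.0506.

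Txn2, the mitochondrial thioredoxin, measured 6.06, 6.07, 4.50, 5.55 and 6.90 FPKM in LH3-AL, 8.15, 11.7, 10.1, 8.44 and 6.57 FPKM in GFP-AL and 6.87, 7.96, 7.28, 8.18 and 6.25 FPKM in GFP-Veh. The LH3-AL libraries were mostly low, although LH3-AL 5 exceeded GFP-AL 5. This gave a log2 fold change of −0.54 ± 0.13 (adjusted p = 0.00861) in LH3-AL against GFP-AL, and −0.36 without GFP-AL 2, GFP-AL 3 and GFP-Veh 2 (adjusted p = 0.0544). Txnip, which binds and blocks thioredoxin, measured 20.8, 22.9, 20.5, 29.1 and 18.2 FPKM in LH3-AL, 26.0, 25.8, 49.8, 44.7 and 37.9 FPKM in GFP-AL and 27.3, 21.8, 29.8, 28.2 and 17.8 FPKM in GFP-Veh. GFP-AL 3, 4 and 5 were high, whereas GFP-AL 1 and GFP-AL 2 lay among the other groups. The log2 fold change of Txnip was 0.52 ± 0.19 (adjusted p = 0.0572), not called, in GFP-AL against GFP-Veh, and −0.67 ± 0.19 (adjusted p = 0.0191) in LH3-AL against GFP-AL. This Txnip call was lost without GFP-AL 3 (adjusted p = 0.0511) and with length balance as a covariate (0.0524), as was the Txn2 call with that covariate (0.0634).

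Gclc, the catalytic subunit of glutamate-cysteine ligase, averaged 18.7 ± 0.642 FPKM in LH3-AL, 25.1 ± 3.44 in GFP-AL and 17.95 ± 1.72 in GFP-Veh. GFP-AL lay just above both other groups in every library, with log2 fold changes of 0.46 ± 0.10 (adjusted p = 0.00264) and −0.40 ± 0.10 (adjusted p = 0.007). With depth as a covariate the first Gclc call was lost (adjusted p = 0.0536). Gclm, the modifier subunit of the same ligase, averaged 9.71 ± 2.48 FPKM in LH3-AL, 8.14 ± 1.81 in GFP-AL and 7.01 ± 1.14 in GFP-Veh and was called in neither comparison. Gss, glutathione synthetase, averaged 1.61 ± 0.253 FPKM in LH3-AL, 2.17 ± 0.351 in GFP-AL and 1.82 ± 0.211 in GFP-Veh, with an adjusted p of 0.0508 in LH3-AL against GFP-AL. Txnrd2, the mitochondrial reductase, averaged 1.12 ± 0.144 FPKM in LH3-AL, 1.08 ± 0.410 in GFP-AL and 1.33 ± 0.147 in GFP-Veh.

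Among the 5 glutathione peroxidases, Gpx3 rose in GFP-AL against GFP-Veh and Gpx8 fell. Gpx3, a secreted form, measured 13.5, 17.5, 15.3, 15.0 and 22.9 FPKM in LH3-AL, 17.8, 56.2, 75.0, 51.2 and 80.2 FPKM in GFP-AL and 10.5, 11.96, 9.02, 8.93 and 8.85 FPKM in GFP-Veh. GFP-AL 1 lay inside the LH3-AL range, the other GFP-AL libraries stood far above it, and every LH3-AL library lay above every GFP-Veh library. In log2 terms, the fold change of Gpx3 was 2.24 ± 0.30 (adjusted p = 9.74e-05) in GFP-AL against GFP-Veh and −1.54 ± 0.30 (adjusted p = 0.00196) in LH3-AL against GFP-AL. In LH3-AL against GFP-Veh it was 0.71 ± 0.30 (adjusted p = 0.497), not called in the fit over 3 groups. Fitted on those 2 groups alone, the same value was called (adjusted p = 0.0305). Catalase was the other member whose LH3-AL and GFP-Veh ranges did not overlap, where 2.06% of all tested genes were higher and 2.61% lower without overlap.

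Gpx8, a peroxidase of the endoplasmic reticulum, measured 43.2, 40.5, 40.5, 44.8 and 39.4 FPKM in LH3-AL, 26.1, 34.8, 16.9, 36.1 and 28.4 FPKM in GFP-AL and 44.8, 68.7, 38.6, 41.5 and 40.6 FPKM in GFP-Veh. Every GFP-AL library lay below every library of both other groups. For Gpx8 the log2 fold change was −0.71 ± 0.18 (adjusted p = 0.00961) and 0.58 ± 0.18 (adjusted p = 0.0292). The second Gpx8 call was lost without GFP-AL 3, without LH3-AL 1 and without LH3-AL 4 (adjusted p of 0.0646, 0.0596 and 0.0633), and the first with depth as a covariate (0.0592). Gpx1, the abundant cytosolic form, is given per library although the naming rule did not select it. It was picked for its wide spread, after its values had been seen. Gpx1 measured 51.4, 12.2, 22.7, 12.8 and 27.5 FPKM in LH3-AL, 94.0, 117, 117, 28.8 and 24.0 FPKM in GFP-AL and 46.7, 69.1, 42.5, 39.5 and 9.80 FPKM in GFP-Veh. High and low libraries occurred in each group, and all ranges overlapped. The fitted log2 change was 0.79 ± 0.56 (adjusted p = 0.303) and −1.45 ± 0.56 (adjusted p = 0.0622). Gpx4, which reduces lipid hydroperoxides, averaged 27.0 ± 2.85 FPKM in LH3-AL, 31.2 ± 6.23 in GFP-AL and 25.7 ± 5.68 in GFP-Veh, and Gpx7, also of the endoplasmic reticulum, averaged 9.52 ± 1.64 FPKM in LH3-AL, 10.4 ± 0.948 in GFP-AL and 9.31 ± 1.90 in GFP-Veh. Neither was called. For Gpx4, 34.7% of its 50-base words also occur in other genes, mainly a pseudogene, so its level is uncertain.

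Prdx5, a peroxiredoxin of mitochondria, peroxisomes and cytosol, measured 12.8, 20.1, 13.6, 12.7 and 13.9 FPKM in LH3-AL, 22.5, 33.6, 26.7, 17.5 and 22.8 FPKM in GFP-AL and 15.7, 22.2, 12.01, 14.3 and 12.1 FPKM in GFP-Veh. GFP-Veh 2 and LH3-AL 2 were the highest of their groups and lay above GFP-AL 4. The log2 fold change of Prdx5 was 0.66 ± 0.18 (adjusted p = 0.015) and −0.70 ± 0.18 (adjusted p = 0.012), and the second was −0.38 (adjusted p = 0.0673) with length balance as a covariate. Prdx2, a cytosolic form abundant in red cells, averaged 16.7 ± 4.13 FPKM in LH3-AL, 20.3 ± 2.24 in GFP-AL and 14.5 ± 3.50 in GFP-Veh. Its log2 fold change of 0.48 ± 0.16 (adjusted p = 0.0318) in GFP-AL against GFP-Veh was lost in 10 of 25 alternatives, with adjusted p values up to 0.0994. These included leaving out GFP-Veh 1, 3, 4 or 5 or GFP-AL 1, 3 or 4, and the replicate block. Prdx4, the form of the endoplasmic reticulum, averaged 9.28 ± 0.995 FPKM in LH3-AL, 8.95 ± 0.888 in GFP-AL and 12.1 ± 3.19 in GFP-Veh. Its log2 fold change of −0.38 ± 0.13 (adjusted p = 0.0413) was lost in 16 of 25 alternatives. Leaving out GFP-Veh 2, 4 or 5, GFP-AL 2, 3, 4 or 5, or LH3-AL 1, 3, 4 or 5 each ended it. Without GFP-AL 2, GFP-AL 3 and GFP-Veh 2 it was −0.22 (adjusted p = 0.126). The other peroxiredoxins, cytosolic Prdx1, mitochondrial Prdx3 and cytosolic Prdx6, were not called, with means of 33.9, 28.8 and 7.54 FPKM in LH3-AL, 31.9, 28.7 and 9.78 FPKM in GFP-AL and 41.2, 26.1 and 9.49 FPKM in GFP-Veh. Exons of Prdx2 and Prdx5 overlap genes of the opposite strand, as do those of Gclm, Gss, Gstm5, Keap1, Ncf1, Txnip and Txnrd2.

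**Figure D5:**
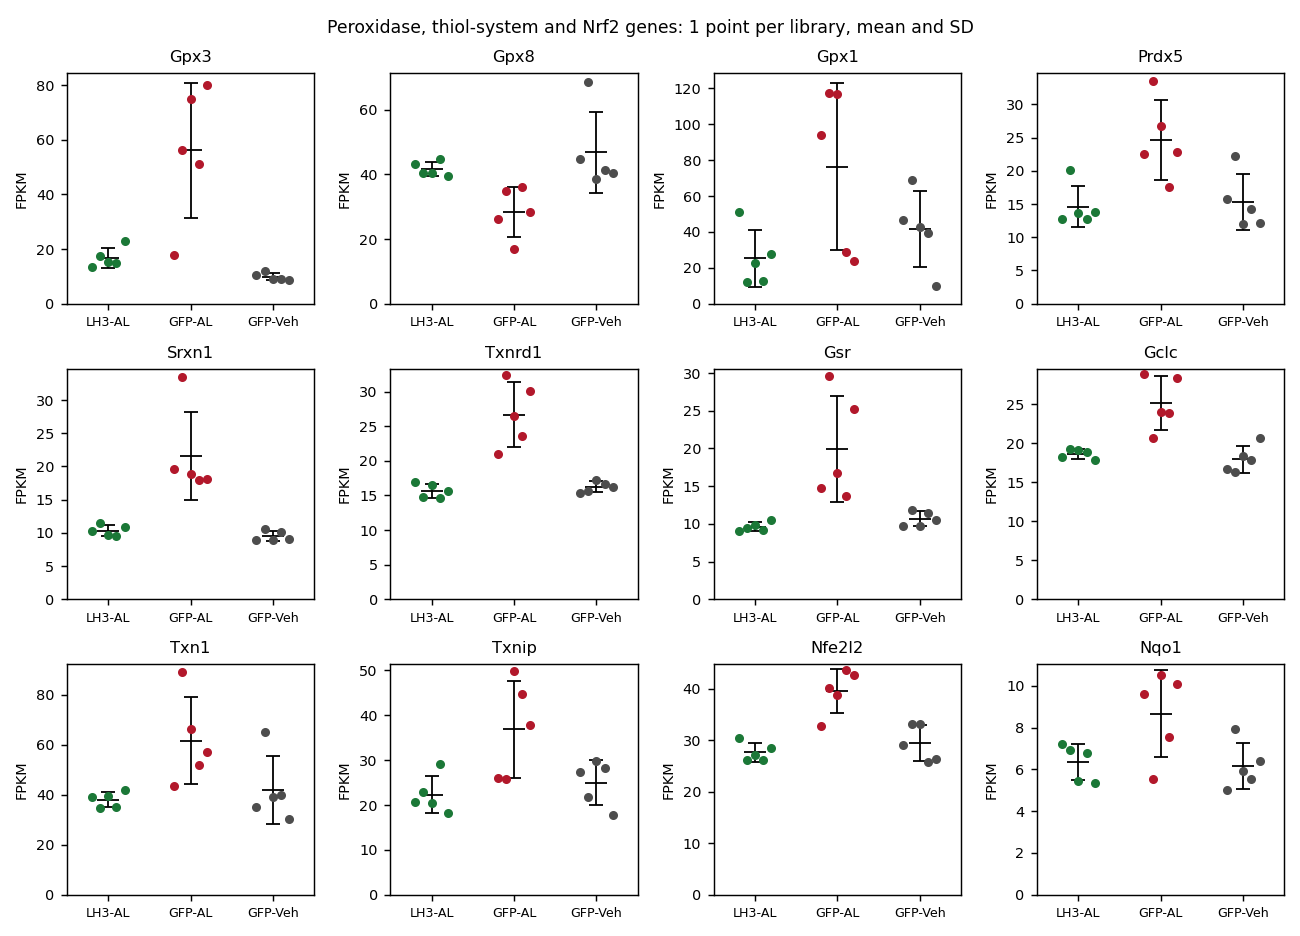
FPKM of 12 peroxidase, thiol-system and Nrf2-system genes on linear axes from 0, with 1 point per library and the mean and SD in LH3-AL, GFP-AL and GFP-Veh. Srxn1, Txnrd1 and Gsr show GFP-AL points clear of both other groups, Gpx8 shows GFP-AL points below them, and Gpx1 points are spread in each group. The lowest GFP-AL point of Gclc, 20.70 FPKM, lies barely above the highest GFP-Veh point, 20.65 FPKM.

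Of the 4 superoxide dismutase and catalase genes, 1 was called, in LH3-AL against GFP-AL. Sod2, the mitochondrial dismutase, measured 11.9, 11.4, 12.1, 11.6 and 13.01 FPKM in LH3-AL, 11.4, 20.7, 15.9, 15.0 and 15.7 FPKM in GFP-AL and 11.2, 14.9, 14.6, 13.4 and 12.4 FPKM in GFP-Veh. GFP-AL 2 was highest and the groups overlapped. Its log2 fold change was −0.34 ± 0.12 (adjusted p = 0.0458) in LH3-AL against GFP-AL, a call lost in 18 of 25 alternatives with values of −0.45 to −0.20 and adjusted p values up to 0.253. Of the single libraries, leaving out GFP-AL 2, 3, 4 or 5, GFP-Veh 3, 4 or 5 or any LH3-AL library ended it. For Sod2, 21.04% of its 50-base words occur in other genes. Sod1, the cytosolic copper and zinc enzyme, averaged 174 ± 5.40 FPKM in LH3-AL, 248 ± 55.3 in GFP-AL and 216 ± 75.4 in GFP-Veh. All LH3-AL libraries of Sod1 lay below all GFP-AL libraries, yet the adjusted p was 0.0603. Sod3, the extracellular dismutase, averaged 37.2 ± 4.26 FPKM in LH3-AL, 40.4 ± 7.28 in GFP-AL and 38.3 ± 4.39 in GFP-Veh, and catalase 44.0 ± 4.90 FPKM in LH3-AL, 34.8 ± 10.6 in GFP-AL and 34.3 ± 3.02 in GFP-Veh. In log2 terms, the fold change of catalase was 0.38 ± 0.18 in LH3-AL against GFP-AL and 0.35 ± 0.18 when LH3-AL was set against GFP-Veh, neither called.

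None of the 6 glutathione S-transferases, which conjugate glutathione to electrophiles, was called in any comparison. Their log2 fold changes ran from −0.30 to 0.07 in GFP-AL against GFP-Veh and from −0.03 to 0.30 in LH3-AL against GFP-AL. Gstm2, the class member with the smallest p in the 2 comparisons with GFP-AL, measured 16.9, 13.8, 14.8, 14.6 and 16.3 FPKM in LH3-AL, 14.7, 8.21, 11.98, 14.1 and 13.1 FPKM in GFP-AL and 12.6, 19.7, 14.1, 12.6 and 11.6 FPKM in GFP-Veh. GFP-AL 2 was lowest and the groups overlapped, with an adjusted p of 0.147 in LH3-AL against GFP-AL. Gsta4, which acts on lipid aldehydes, averaged 117 ± 37.6 FPKM in LH3-AL, 107 ± 33.8 in GFP-AL and 101 ± 29.4 in GFP-Veh. Gstm1, Gstm5, Gstp1 and Gstt1 averaged 48.8, 14.3, 50.6 and 13.4 FPKM in LH3-AL, 47.7, 14.0, 51.3 and 10.99 FPKM in GFP-AL and 56.4, 15.1, 65.4 and 13.01 FPKM in GFP-Veh. Of the 50-base words of Gstp1 and Gstm1, 33.7% and 18.9% occur in other genes, so these levels are uncertain.

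Nfe2l2, the gene of Nrf2, measured 30.5, 26.1, 27.1, 26.3 and 28.5 FPKM in LH3-AL, 32.8, 40.1, 38.8, 43.6 and 42.6 FPKM in GFP-AL and 29.0, 33.2, 33.1, 25.8 and 26.3 FPKM in GFP-Veh. GFP-AL lay above LH3-AL in every library, and GFP-AL 1 lay just below the highest GFP-Veh libraries. This gave a log2 fold change of 0.41 ± 0.10 (adjusted p = 0.00612) and −0.50 ± 0.10 (adjusted p = 0.00233). Keap1, its inhibitor, averaged 7.74 ± 0.640 FPKM in LH3-AL, 8.70 ± 1.30 in GFP-AL and 7.32 ± 1.22 in GFP-Veh and was not called. Nqo1, a quinone reductase regarded as a typical Nrf2 target, averaged 6.35 ± 0.879 FPKM in LH3-AL, 8.66 ± 2.09 in GFP-AL and 6.17 ± 1.11 in GFP-Veh. Its adjusted p was 0.0562 in GFP-AL against GFP-Veh, with a log2 fold change of 0.41 ± 0.15, and 0.081 in LH3-AL against GFP-AL, with −0.37 ± 0.15.

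Counted by ranges, 9 members in GFP-AL lay above GFP-Veh without overlap and 1 below, where 6.59% of all tested genes lay above and 10.1% below. In LH3-AL against GFP-AL, 13 lay below without overlap and 1 above, beside 8.45% and 11.0% of all tested genes. On the FPKM scale, Sod1 was the highest member in LH3-AL at 174 FPKM and in GFP-Veh at 216 FPKM, while in GFP-AL Mt2 at 1161 and Mt1 at 996 FPKM came before Sod1 at 248. Nox4 was the lowest in each group. Of the 41 pairs of neighbours in that order, the ranges did not overlap for 5 in LH3-AL, 5 in GFP-AL and 3 in GFP-Veh. The other neighbours had overlapping ranges, and whether they differed was not tested.

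Related genes outside the group behaved in part alike. From 72 further antioxidant, Nrf2-regulated, metal-response and oxidase genes, 62 were tested, and 20 rose and 4 fell in GFP-AL against GFP-Veh with a median log2 fold change of 0.20. In LH3-AL against GFP-AL, 18 fell and 6 rose with a median of −0.19. Of all tested genes, 10.8% rose and 17.7% fell in the first comparison, and 11.4% fell and 17.0% rose in the second. The medians over all tested genes were −0.09 and 0.08. Between LH3-AL and GFP-Veh limma called 0 of the 62, beside 0.520% of all tested genes. There 7 of them had an unadjusted p below 0.05, beside 1180 of all 13082 tested genes. Hmox1, the inducible heme oxygenase, measured 5.32, 4.69, 6.31, 5.88 and 15.3 FPKM in LH3-AL, 19.5, 95.4, 32.8, 43.2 and 36.4 FPKM in GFP-AL and 4.47, 6.39, 4.56, 3.92 and 4.56 FPKM in GFP-Veh. GFP-AL lay above all other libraries, and LH3-AL 5 was the highest of its group. For Hmox1 the log2 fold change was 2.83 ± 0.34 (adjusted p = 4.37e-05) and −2.37 ± 0.34 (adjusted p = 0.000275). Maff, a small Maf partner of Nrf2, had log2 fold changes of 1.29 ± 0.28 and −2.07 ± 0.28 (adjusted p = 0.00342 and 0.000173), and for the related Mafk they were 0.20 ± 0.12 and −0.71 ± 0.12 (adjusted p = 0.249 and 0.000967), the first not called. In LH3-AL against GFP-Veh, Mafk was lower without overlap but not called, with −0.52 ± 0.12 (adjusted p = 0.0904).

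Rac2, the small GTPase of the phagocyte oxidase in blood cells, had log2 fold changes of 1.13 ± 0.22 and −1.33 ± 0.22 (adjusted p = 0.00171 and 0.000703). For the zinc transporter Slc39a14 they were 0.75 ± 0.15 and −0.71 ± 0.15 (adjusted p = 0.00215 and 0.0038). Another zinc transporter, Slc30a1, had −0.01 ± 0.19 and −0.36 ± 0.19 (adjusted p = 0.968 and 0.154), not called. Mtf1, the gene of MTF1, had −0.20 ± 0.10 and −0.07 ± 0.10 (adjusted p = 0.161 and 0.644), not called either. Gsto1, an omega-class transferase, had 1.03 ± 0.14 and −0.68 ± 0.14 (adjusted p = 0.000132 and 0.00324), and glutaredoxin Glrx had 0.77 ± 0.13 and −0.45 ± 0.13 (adjusted p = 0.000559 and 0.0191). The membrane transferase Mgst1 had 0.41 ± 0.13 and −0.64 ± 0.13 (adjusted p = 0.024 and 0.002). Like Gpx8, the epoxide hydrolase Ephx1 went the other way, with −0.92 ± 0.19 and 0.83 ± 0.19 (adjusted p = 0.00219 and 0.00492), as did the zeta-class transferase Gstz1 with −0.56 ± 0.13 and 0.64 ± 0.13 (adjusted p = 0.00541 and 0.00266).

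In the authors' deposited table for GFP-AL against GFP-Veh, 7 members were listed as up and 0 as down, where 3.83% and 3.99% of all 22557 rows were listed. Those 7 carried log2 fold changes in the authors' deposited table of 3.15 for Mt2, 2.52 for Gpx3, 2.41 for Mt1, 1.77 for Ncf4, 1.24 for Ncf1, 1.19 for Srxn1 and 1.16 for Nox4 (q-value of 0.0123 for Nox4). The other of the authors' deposited tables is named for LH3-AL against GFP-Veh. Its fold changes had the sign of LH3-AL against GFP-AL for 1746 of 1746 genes, and of LH3-AL against GFP-Veh for 1027. They differed from log2 ratios of the group means by a median of 0.016 for LH3-AL against GFP-AL. For LH3-AL against GFP-Veh that difference was 1.45. Its values are thus those of LH3-AL against GFP-AL, whatever its name. That authors' deposited table listed 8 members as down and 0 as up, beside 3.68% and 4.06% of all rows. In it the authors' deposited table gave −3.28 for Mt2, −2.53 for Mt1, −1.84 for Ncf4, −1.73 for Gpx3, −1.59 for Gpx1, −1.45 for Ncf1 and −1.06 for both Srxn1 and Gsr. Nox4 and Gpx1, listed in the authors' deposited tables, were not called with limma here, Nox4 because it was below the filter.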

How the data were processed

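Total RNA from isolated cerebral vessels was sequenced in 15 mouse libraries, grouped by their labels into LH3-AL, GFP-AL and GFP-Veh with 5 each. STAR 2.5.1b and the build mm8 are named in the submitters' processing notes, and counting tool, strand and kit were not given in the sources used here. Among 22557 rows of the deposited table, named as FPKM by the authors, 5.99% of values lay below 0. These deposited FPKM values (an unspecified variant of the unit, since FPKM cannot be negative) were set to 0 where negative, and rows sharing a symbol were summed, which left 22526 symbols. The authors' deposited tables of log2 fold changes, p-values and q-values were only described.

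Levels were tested on log2(FPKM + 1) with limma 3.58.1 in R 4.3.3, with group means, an intensity trend, all 15 libraries in 1 fit, a mean of at least 1 FPKM and Benjamini-Hochberg adjustment over 13082 genes, and the fit was tested on simulated data. Values of each library were printed for members called in GFP-AL against GFP-Veh or LH3-AL against GFP-AL with a log2 fold change of at least 0.5 in size, and for the member of smallest p in each class. From the list of related genes, the 10 called ones of smallest p were named. Mtf1 and Slc30a1 were added outside that rule, after their values had been seen. Members and lists were chosen with earlier results of these data known. Alternatives were another pseudocount, filters, scalings, 2-group fits, a replicate block, depth as a covariate, the removal of 3 libraries that stood apart and of each library in turn. A covariate for the balance of short and long transcripts was chosen after seeing the data. Gene positions, overlaps and shared 50-base words came from GENCODE M21 (GRCm38), and 22419 gene IDs matched. Depth is an estimate from the values' steps, in which 42.9% to 65.0% of low values were whole reads within 0.1, so no count test was run.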

Additional observations from a re-analysis of the deposited data

Results flagged for a closer look

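Within a group of 5 libraries, a value was singled out when its gap to the nearest other library exceeded 0.71 of the whole range (Dixon's test). Among 126 sets of 5 values this happened 13 times. For independent, normally distributed values chance gives about 1 in 20. The genes share the same libraries and FPKM need not be normal, so the count cannot be set against that rate. GFP-Veh 2 held 5 of them, all at the top of the group: Gpx8 at 68.7 FPKM, Prdx2 at 20.6, Prdx4 at 17.7, Mt3 at 121 and Cyba at 98.8 FPKM. In GFP-AL 2, Srxn1 stood highest at 33.5 FPKM and Gstt1 lowest at 6.10 FPKM. In GFP-AL 3, Prdx1 stood lowest at 26.8 FPKM. The others, each the highest of its group, were Prdx5 at 20.1 FPKM in LH3-AL 2, Keap1 at 8.86 FPKM in LH3-AL 3, Prdx2 at 24.0 and Gsta4 at 183 FPKM in LH3-AL 5, and Cybb at 3.31 FPKM in GFP-Veh 3.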

How the results depend on the processing

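Of the member calls, 11 of 17 in GFP-AL against GFP-Veh and 11 of 18 in LH3-AL against GFP-AL were kept in every alternative in which the gene was tested, and no called member changed sign. Counts below follow the order higher, lower where both moved. In GFP-AL against GFP-Veh, all-gene calls were 2174 with a 5 FPKM filter and 2363 with depth as a covariate, instead of 3737. Members called lower, 2 before, were 1 with no filter, with median-of-ratios scaling, with 2 groups and without the 3 libraries that stood apart, 0 with depth, 4 with length balance, and 1 to 2 with single libraries left out. Related genes called higher, 20 before, were 11 with depth and 13 to 26 with single libraries left out. In LH3-AL against GFP-AL, all-gene calls were 2109 with the 5 FPKM filter and 1797 with length balance, instead of 3723. With length balance, members called lower were 11 instead of 17 and related genes called lower 10 instead of 18. Members called higher were 0 to 2 with single libraries left out. Related genes called higher, 6 before, were 2 with no filter, 3 with median-of-ratios scaling, without the 3 libraries and with length balance, and 2 to 7 with single libraries left out. In LH3-AL against GFP-Veh, all-gene calls were 176 with 2 groups, 4 with depth, 158 without the 3 libraries and 27 to 110 with single libraries left out, instead of 68. There 1 member, Gpx3, was called higher with 2 groups, and 1 related gene lower with 2 groups and without the 3 libraries, and 0 to 1 with single libraries left out. The causes were not tested, beyond the fewer genes tested under the 5 FPKM filter. Replicate numbers showed no clear pairing of the libraries: same-number correlations were −0.261 to 0.286, 5 of 15 above 0.1. Libraries numbered 2 gave 0.258 for GFP-Veh with GFP-AL, 0.286 for GFP-AL with LH3-AL and −0.049 for GFP-Veh with LH3-AL. In 8 of 30 pairings of a library with another group, the library correlated best with its own number. A shared batch was not tested. With a replicate block, all-gene calls in LH3-AL against GFP-Veh were 31, members rose or fell as 15 and 2 in GFP-AL against GFP-Veh, and 19 fell and 1 rose in LH3-AL against GFP-AL. The part of depth in the levels of the lowest members, Nox4, Ncf4, Txnrd2 and Gss, was not tested.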
